A study of Mus musculus with 6 samples.

Results

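The interferon-stimulated antiviral genes form a list of 43 mouse genes, taken by symbol from a count table of 37991 genes and grouped by role. All 43 matched a gene ID in the table. The counts come from primordial germ cell-like cells (PGCLCs), a culture model of the first germ cells which start from C57BL/6 embryonic stem cells and pass through a state that resembles the epiblast. Every library came from 1 genotype of stem cells with floxed Ezh2 alleles and a Cre-ERT2 recombinase, a form of Cre that tamoxifen compounds activate. For the 3 Ezh2 KO libraries (genotype label Ezh2-/-, CreERT2) the cell aggregates received 4-hydroxytamoxifen in ethanol when PGCLC induction began, and for the 3 Ctrl libraries (Ezh2f/f, CreERT2) they received the ethanol only. All aggregates were grown with BMP2, SCF, LIF and EGF, received fresh medium without either agent on day 2, and were taken and sorted on day 4. The groups therefore differ in the tamoxifen compound and in active Cre as well as in Ezh2, and these cannot be told apart. Whether the replicates came from separate cultures is not stated in the labels, and p-values here cover only the spread among the 6 libraries, which may be technical. All libraries go back to 1 stem cell line, and the gate of the sort is not given in the sources used here.

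Interferons are secreted proteins that cells release when sensors such as RIG-I detect foreign RNA or DNA. They bind surface receptors whose Jak kinases activate Stat factors such as Stat2, which acts with Irf9 on a DNA motif called the interferon-stimulated response element to switch on a broad set of antiviral genes. Pluripotent stem cells are known for a weak interferon response and rely on a basal set of antiviral genes. Ezh2 is the main enzyme of polycomb repressive complex 2 and places the repressive mark H3K27me3, and the comparison asks how its loss bears on transcripts of early germ cells.

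Total counts ran from 27072150 to 49382146 per library, and mitochondrial genes held 1.79% to 3.37% of them. Levels are given as CPM, the read count scaled to library size with TMM factors. Ezh2 itself was at 91.8, 78.1 and 95.3 CPM in the Ctrl libraries, replicates 1 to 3, against 40.8, 67.1 and 70.0 CPM in those of Ezh2 KO (log2 fold change -0.58, unadjusted p = 0.0361, edgeR adjusted p = 0.976), with the lowest level in Ezh2 KO replicate 1. All 11 PGC marker genes passed the filter on low counts, with a summed level of 1781 to 1931 CPM in Ctrl against 1498 to 1901 CPM in Ezh2 KO. Of the 11, 8 had a negative log2 fold change and 5 were lower in all 3 pairs, as were 14.8% of all tested genes. Their median was -0.29, with 0 at an unadjusted p under 0.05. The part of these differences in the values of the antiviral genes was not tested. On the first principal component, which held 55.5% of the variance, Ctrl replicate 1 and Ezh2 KO replicate 2 lay at opposite ends, and across genes its loadings went with the GC content of transcripts (Spearman's rho -0.52, a description, since genes are not independent).

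Of the 43 antiviral genes, 39 passed the filter on low counts and were tested, and Iigp1, Mx1, Mx2 and Ifi44 were too low. Most were expressed weakly. The mean level was under 10 CPM in 32 genes and under 1 CPM in 10, and per kilobase of the longest transcript the median of the 39 was 1.25 CPM per kb against 4.66 for 15629 tested genes with a known length. In bulk libraries such as these, fewer cells of a type and less RNA per cell cannot be told apart.

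In the Ezh2 KO libraries 7 of the antiviral genes had an unadjusted p under 0.05 and were higher in every pair of same-numbered libraries. The other 32 tested genes had a median log2 fold change of 0.08. Because the 7 genes were picked by p-value in the same data, a lower median in the rest follows from the choice. The 7 were the immunity GTPase gene Irgm1, the oligoadenylate synthetase gene Oas2, the apoptosis gene Xaf1, the nucleic acid sensor gene Zbp1, and Rtp4, Usp18 and Oasl2, with log2 fold changes from 0.74 to 1.53. No single gene passed edgeR's quasi-likelihood test after Benjamini-Hochberg adjustment over all 16420 tested genes, where 0.0% of all genes were called. At an unadjusted p under 0.05 these 7 were 17.9% of the tested members and 0 members were lower, while 1.55% of all tested genes were higher and 1.25% lower. DESeq2 called 0 members (0.0201% of its tested genes were called) and had 7 higher at an unadjusted p under 0.05, where 1.5% of its tested genes were. By limma-voom 0 members were called and 5 were higher at an unadjusted p under 0.05, where 1.41% of all tested genes were.

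With the replicate number as a block, DESeq2 called 2 members, Irgm1 (log2 fold change 1.39, adjusted p = 0.0296) and Xaf1 (1.20, adjusted p = 0.00697), both higher, where 0.131% of its tested genes were called higher. Oas2 missed that threshold (1.39, DESeq2 adjusted p = 0.0505). The same block in edgeR called 0 members, with 7 higher and 2 lower (Gbp2 and Stat2) at an unadjusted p under 0.05, against 5.98% and 3.12% of all tested genes. No other fit that was run called Irgm1 or Xaf1.

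Over the 39 tested members the median log2 fold change was 0.19, against 0.01 for all tested genes, and 25 were positive, where 51.3% of all tested genes were. The libraries of the groups did not overlap in 7 members, 6 higher and 1 lower, where 4.07% and 4.03% of all tested genes had such a parting. In 15 members every Ezh2 KO library exceeded the Ctrl library of the same number and in 2 it was below, where 17.9% and 14.8% of all tested genes did so. Outside the 7 genes above, log2 fold changes ran from -0.70 to 0.63. Over all 43, including those too low to test, 28 had a higher mean in Ezh2 KO.

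Promoter sequence was compared with these levels because interferon factors bind short motifs near the start site. RefSeq promoter windows on GRCm38.p6, which span 250 bases before to 50 after the start, were matched for 32 members. They were not matched for Dhx58, Zbp1, Oas1b, Oas2, Iigp1, Mx1, Mx2, Usp18, Parp9, Parp14 and Rtp4. The core of the response element, a pair of GAAA separated by 2 bases of any kind, on either strand, was found in 18 of the 32 members (56.2%). Of all 27025 genes with a RefSeq window, whether counted here or not, 3.99% held it. The gamma-activated site is TTC and GAA separated by 3 bases of any kind, which reads the same on both strands and can overlap the core. It was found in 11 members (34.4%) and in 9.55% of the 27025 genes. Stretches of 80 bases that end before the start site are shown for members with the core, chosen to span genes whose groups did not overlap (Irgm1, Gbp3), genes whose groups did (Isg15, Ifit1) and a pair of close copies (Oas1a, Oas1g). Each runs 5′ to 3′ on the strand of the gene, and capitals mark bases within a match of the core.
Irgm1 (chr11:48871421-48871500, minus strand): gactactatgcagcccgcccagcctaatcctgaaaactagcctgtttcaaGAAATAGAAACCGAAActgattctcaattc
Gbp3 (chr3:142559964-142560043, plus strand): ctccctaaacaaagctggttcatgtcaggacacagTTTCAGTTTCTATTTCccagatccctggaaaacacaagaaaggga
Isg15 (chr4:156200840-156200919, minus strand): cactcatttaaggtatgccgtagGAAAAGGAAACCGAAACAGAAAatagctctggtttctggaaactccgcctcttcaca
Ifit1 (chr19:34640769-34640848, plus strand): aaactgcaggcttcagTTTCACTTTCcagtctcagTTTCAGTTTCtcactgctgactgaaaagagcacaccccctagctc
Oas1a (chr5:120907526-120907605, minus strand): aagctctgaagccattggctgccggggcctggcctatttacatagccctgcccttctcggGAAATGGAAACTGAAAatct
Oas1g (chr5:120887614-120887693, minus strand): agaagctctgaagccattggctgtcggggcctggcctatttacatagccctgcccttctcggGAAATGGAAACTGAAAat
Irgm1 and Gbp3 each carry 2 overlapping matches within 45 bases of the start, Isg15 carries 3 overlapping ones, and Ifit1 carries 2 that stand apart.

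Members with and without the core overlapped in their difference between Ezh2 KO and Ctrl, which was not tested. The 18 members with the core had a median log2 fold change of -0.01, with 9 positive, and ran from -0.70 (Gbp2) to 1.53 (Irgm1). The 13 tested members with a window but no core had a median of 0.22, with 10 positive, among them Xaf1 and Oasl2. Neither median includes the 8 tested members with no matched window, which hold 4 of the 7 genes with an unadjusted p under 0.05 (Zbp1, Oas2, Usp18 and Rtp4). In 8 members at least 1 window was CpG-rich (GC content of at least 50% and an observed to expected CpG ratio of at least 0.6), namely Ddx58, Eif2ak2, Adar (1 of its 3 windows), Irf1, Stat2, Trim25, Dtx3l and Samhd1. These 8 ran from 0.961 to 9.71 CPM per kb with a median of 6.81, and the other 24 from 0.0115 to 89.8 with a median of 0.821. Among all tested genes with a window the medians were 6.67 CPM per kb for 7586 CpG-rich genes and 1.90 for 3196 others, so the members followed the same order. The 8 CpG-rich members lay between -0.51 and 0.39 on the log2 scale, with a median of 0.03, while the 23 tested others had a median of 0.20 and held Irgm1 and Xaf1.

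**Figure D1:**
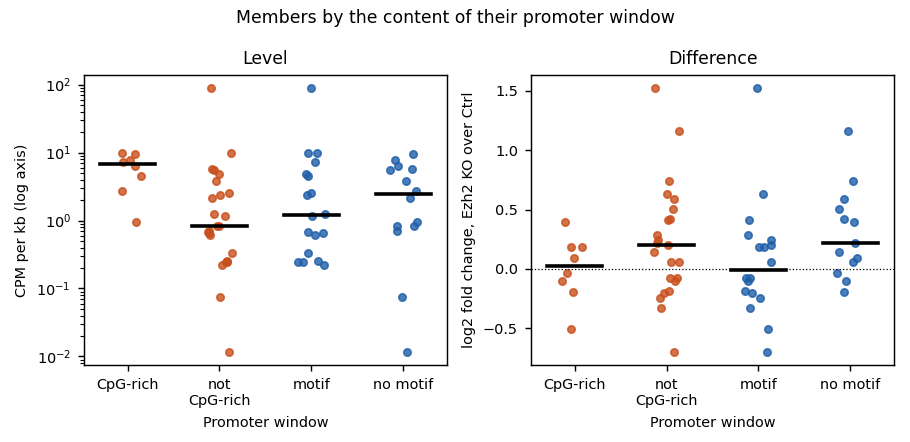
Level (CPM per kb of the longest transcript, log axis, left) and log2 fold change of Ezh2 KO over Ctrl (right) for the 32 members with a promoter window, split by CpG content (orange) and by the core of the response element (blue), with 1 point per gene and the median as a black line. The CpG-rich members sit at a median of 6.81 CPM per kb against 0.821 for the rest, and the classes overlap in log2 fold change.

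RNA sensors were present at very unequal levels. The groups overlapped in 5 of 6, while over all tested genes 4.07% were higher and 4.03% lower without overlap. Ddx58 encodes RIG-I, which detects short RNA with a triphosphate end, Ifih1 encodes MDA5, which detects long RNA duplexes, and Dhx58 encodes LGP2, which tunes both. Ddx58 was at 33.0, 34.3 and 38.3 CPM in the Ctrl libraries, in the order of their numbers, against 34.4, 55.2 and 30.6 CPM in those of Ezh2 KO (a log2 fold change of 0.19, with a 95% interval of -0.39 to 0.76). The groups overlapped, and only Ezh2 KO replicate 2 lay above the Ctrl range; without that library the sign of Ddx58 was negative. Per kilobase of transcript Ifih1 (0.224 CPM per kb) was far below Ddx58 (9.71 CPM per kb). Ifih1 ran from 0.57 to 1.8 CPM in Ctrl against 0.35 to 2.28 CPM in Ezh2 KO, and Dhx58 from 2.00 to 2.41 and from 1.04 to 3.29 CPM, with no common direction. Eif2ak2, the RNA-activated kinase PKR that halts translation, was at 29.0, 25.1 and 34.3 CPM in Ctrl against 35.5, 27 and 37.7 CPM in Ezh2 KO (0.18, -0.32 to 0.68). It was higher in each pair, but by less than the spread within groups. Adar, which edits RNA duplexes and so keeps sensors from reading the cell's own RNA, spanned 10.8 to 23.1 CPM in Ctrl against 8.46 to 22.9 CPM in Ezh2 KO (-0.11, -1.04 to 0.83).

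Zbp1, a sensor of left-handed nucleic acids that can start necroptosis, was the exception among the sensors. Zbp1 stood at 1.07, 0.60 and 0.39 CPM in the Ctrl libraries, in the order of their numbers, against 1.58, 1.31 and 1.46 CPM in those of Ezh2 KO. All Ezh2 KO libraries lay above all Ctrl libraries, at low counts, from 11 to 59 reads per library. The log2 fold change of Zbp1 (ENSMUSG00000027514) was 1.04 ± 0.43 SE (unadjusted p = 0.0397, edgeR adjusted p = 0.976).

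The Oas family, whose enzymes make oligoadenylates that activate RNase L when they bind RNA duplexes, divided by member. Oas2 (ENSMUSG00000032690) was at 1.53, 0.85 and 1.56 CPM in Ctrl against 4.41, 2.39 and 3.53 CPM in Ezh2 KO. The lowest Ezh2 KO library lay above the highest Ctrl library, and the log2 ratio of each pair was 1.39, 1.26 and 1.07 (with 0.25 CPM added to both values). The fitted log2 fold change of Oas2 was 1.39 ± 0.38 SE (unadjusted p = 0.00620, edgeR adjusted p = 0.976). Oasl2, an Oas-like gene (ENSMUSG00000029561), was at 4.74, 4.72 and 5.63 CPM in Ctrl against 7.17, 9.69 and 8.30 CPM in Ezh2 KO. Again the groups did not overlap, with a log2 fold change of 0.74 ± 0.25 SE (unadjusted p = 0.0179, edgeR adjusted p = 0.976). Oasl1, which blocks translation of Irf7 mRNA, was higher in each pair, from 0.60 to 2.60 CPM in Ctrl against 1.28 to 2.81 CPM in Ezh2 KO, and the groups overlapped.

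The other 5 Oas genes all had log2 fold changes between -0.21 and -0.08. Oas1a, the most abundant per kilobase (9.75 CPM per kb), was at 17.7, 17.7 and 23.6 CPM in Ctrl against 12.4, 20.0 and 18.7 CPM in Ezh2 KO (-0.21, 95% interval -0.80 to 0.38). Its close copy Oas1g was at 8.06, 9.08 and 12.1 CPM in Ctrl against 6.15, 11.1 and 10.5 CPM in Ezh2 KO (-0.08, -0.77 to 0.62), so Ezh2 KO replicate 1 was the lowest library for both. The promoter windows of these copies share an identical stretch of 73 bases, and reads of such copies can be shared, so their separate values are uncertain. Oas3, Oas1c and Oas1b stood at 3.25 ± 0.511, 2.80 ± 1.54 and 0.685 ± 0.0805 CPM in Ctrl against 3.08 ± 0.972, 2.61 ± 0.591 and 0.60 ± 0.150 CPM in Ezh2 KO (SD, n = 3). The sign of Oas1c, Oas1g and Oas3 turned under some alternatives, and that of Oas1a and Oas1b did not.

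The 3 Ifit genes, which encode proteins that bind viral mRNA lacking the host's cap marks, were low and showed no common direction. Ifit1 was at 1.20, 1.70 and 3.01 CPM in Ctrl against 0.91, 2.36 and 1.43 CPM in Ezh2 KO (a log2 fold change of -0.33, with a 95% interval of -1.45 to 0.78). Ifit2 ran from 0.10 to 0.45 CPM and Ifit3 from 0.08 to 0.96 CPM over all 6 libraries. The 95% intervals of their log2 fold changes, -0.81 to 1.99 for Ifit2 and -2.20 to 1.70 for Ifit3, were among the widest of the list, and reads of Ifit3 can be shared with a near-identical copy.

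Among the immunity GTPases, which attack the vacuoles of intracellular pathogens, Irgm1 stood out. Irgm1 (ENSMUSG00000046879), a regulator of the other GTPases and of autophagy, was at 2.08, 2.41 and 2.90 CPM in the Ctrl libraries, in the order of their numbers, against 3.37, 10.0 and 7.95 CPM in those of Ezh2 KO. No Ezh2 KO library fell within the Ctrl range, but Ezh2 KO replicate 1 lay just above it. The log2 fold change was 1.53 ± 0.42 SE (unadjusted p = 0.00654, edgeR adjusted p = 0.976), and it ran from 1.11 to 1.86 over the alternatives. Its relatives did not share that difference. Irgm2 was at 0.874 ± 0.123 CPM in Ctrl against 0.909 ± 0.256 CPM in Ezh2 KO, and Igtp, also known as Irgm3, at 4.40 ± 1.19 and 5.06 ± 0.964 CPM (SD, n = 3), with log2 fold changes of 0.06 and 0.20. The difference between Irgm1 and these genes was not tested. Members of the Irgm and Gbp families may share reads, and whether they do was not examined.

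The guanylate-binding proteins went apart. Gbp3 was at 0.56, 0.67 and 0.88 CPM in Ctrl against 1.04, 1.08 and 1.14 CPM in Ezh2 KO, without overlap (0.63, 95% interval -0.18 to 1.44). Gbp2 was at 1.24, 1.10 and 3.4 CPM in Ctrl against 0.67, 0.69 and 2.10 CPM in Ezh2 KO, lower in each pair (-0.70, -2.13 to 0.72). Both intervals include 0, and without Ctrl replicate 3 the value of Gbp2 was -0.02. Mx1 and Mx2, of a GTPase family known to block viral nucleocapsids, were near the limit of detection, with 1 to 7 and 2 to 17 reads per library. Mx2 was at 0.12, 0.07 and 0.25 CPM in Ctrl against 0.27, 0.42 and 0.42 CPM in Ezh2 KO. Iigp1 had 0 to 5 reads per library and Ifi44 likewise 0 to 5, and neither supports a comparison.

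**Figure D2:**
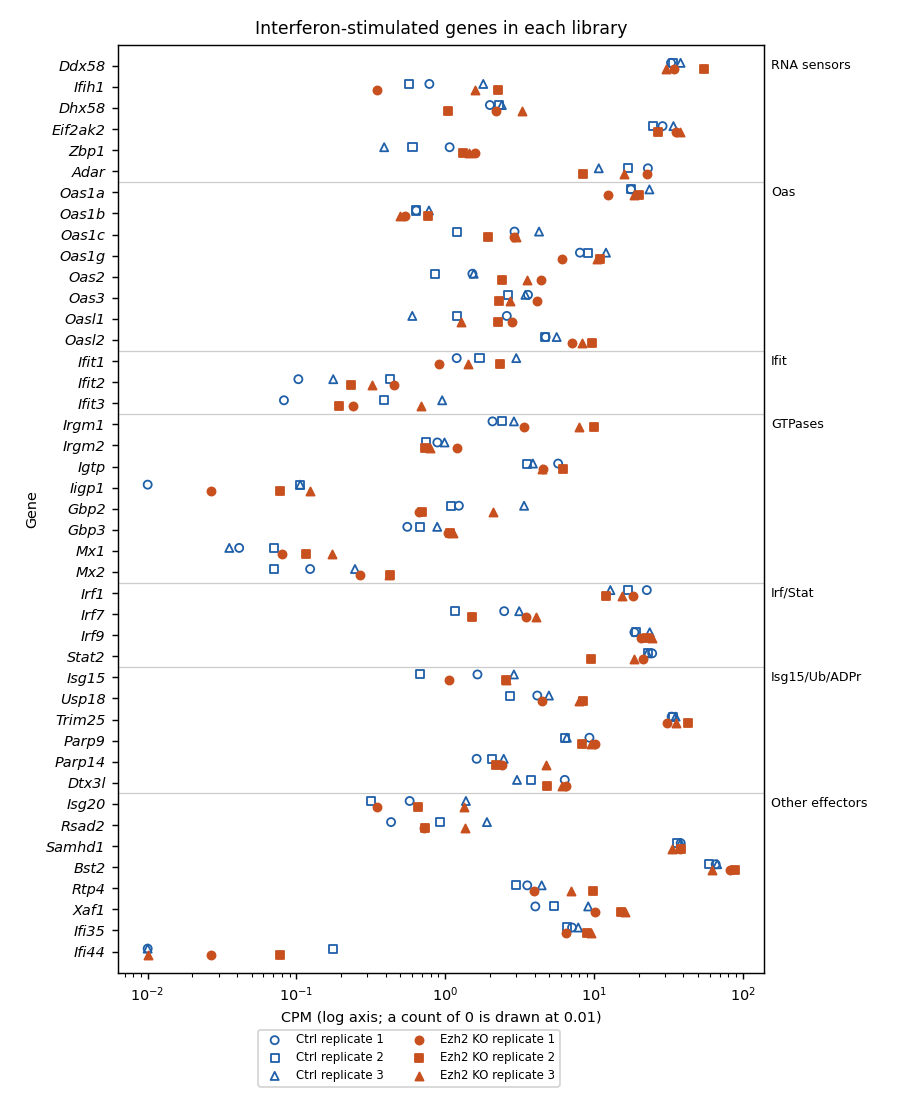
Level of each of the 43 genes (rows, by role) in each library, in CPM on a log axis, with Ctrl as open blue and Ezh2 KO as filled orange symbols and the replicate number as the shape. Oas2, Oasl2, Irgm1, Zbp1, Gbp3, Xaf1 and, at few reads, Mx1 and Mx2 have all orange symbols to the right of all blue ones. Stat2 has them to the left, and the other genes overlap.

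The Irf and Stat factors that carry the interferon signal to DNA had no common direction. Stat2, which acts with Irf9, was at 24.7, 23.0 and 22.9 CPM in Ctrl against 21.5, 9.50 and 18.6 CPM in Ezh2 KO, lower without overlap (log2 fold change -0.51, 95% interval -1.21 to 0.20). Ezh2 KO replicate 2 was by far the lowest, and without it the value was -0.22. That library lay at one end of the component whose loadings went with GC content. With a GC offset in the fit the value of Stat2 was -0.50, and the part of GC content in it was not tested. Irf9, the DNA-binding partner, was at 18.7, 19.2 and 23.7 CPM in Ctrl against 20.6, 22.7 and 24.7 CPM in Ezh2 KO (0.14, -0.33 to 0.61). It was higher in each pair by less than the spread within groups. Irf7, which drives interferon genes, was at 2.49, 1.17 and 3.15 CPM in Ctrl against 3.50, 1.51 and 4.10 CPM in Ezh2 KO (0.42, -0.70 to 1.54), higher in each pair while the groups overlapped. Irf1, a factor of the interferon gamma response, was at 17.5 ± 4.92 and 15.3 ± 3.20 CPM (SD, n = 3; -0.20, -0.84 to 0.45).

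Genes of the Isg15 system and of ubiquitin or ADP-ribose transfer were all positive, 6 of 6, where 51.3% of all tested genes were. Of the 6, 1 was higher at an unadjusted p under 0.05, where 1.55% of all tested genes were. That gene was Usp18 (ENSMUSG00000030107), which strips Isg15 from proteins and damps the interferon receptor. It was at 4.16, 2.73 and 4.99 CPM in Ctrl against 4.49, 8.46 and 7.93 CPM in Ezh2 KO, so Ezh2 KO replicate 1 fell within the Ctrl range. The log2 fold change of Usp18 was 0.81 ± 0.35 SE (unadjusted p = 0.04998, edgeR adjusted p = 0.976). Isg15 itself, the ubiquitin-like modifier, was at 1.65, 0.67 and 2.90 CPM in Ctrl against 1.07, 2.55 and 2.57 CPM in Ezh2 KO (0.24, 95% interval -1.05 to 1.54), and its sign turned without Ctrl replicate 2. Trim25, the ligase that activates RIG-I, was nearly level at 34.3 ± 1.06 and 36.6 ± 5.79 CPM (SD, n = 3, log2 fold change 0.09, 95% interval -0.34 to 0.53). The sign of Trim25 turned under some alternatives.

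Parp9 and Dtx3l, whose proteins work as one ADP-ribose and ubiquitin transferase, followed each other across the libraries. Parp9 was at 9.34, 6.42 and 6.58 CPM in Ctrl against 10.2, 8.34 and 9.51 CPM in Ezh2 KO, and Dtx3l at 6.37, 3.8 and 3.04 CPM and 6.47, 4.83 and 6.10 CPM. Both were higher in each pair while the groups overlapped (0.32, 95% interval -0.26 to 0.91, and 0.39, -0.38 to 1.17). Parp14, a further ADP-ribose transferase, was at 1.63, 2.06 and 2.48 CPM in Ctrl against 2.41, 2.20 and 4.79 CPM in Ezh2 KO (0.62, -0.28 to 1.52).

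Of the other effectors, Xaf1 and Rtp4 had the largest differences. Xaf1 (ENSMUSG00000040483), an antagonist of the apoptosis inhibitor XIAP, was at 4.04, 5.36 and 9.16 CPM in the Ctrl libraries, in the order of their numbers, against 10.2, 15.3 and 16.1 CPM in those of Ezh2 KO. All Ezh2 KO libraries lay above all Ctrl libraries, the lowest of them at 10.2 CPM against a highest Ctrl library at 9.16 CPM. The log2 fold change of Xaf1 was 1.17 ± 0.36 SE (unadjusted p = 0.0112, edgeR adjusted p = 0.976). Rtp4, a chaperone of membrane receptors that is induced by interferon (ENSMUSG00000033355), was at 3.57, 2.98 and 4.46 CPM in Ctrl against 3.96, 9.92 and 7.06 CPM in Ezh2 KO. For Rtp4, as for Usp18, Ezh2 KO replicate 1 lay within the Ctrl range and the other two above it (0.93 ± 0.38 SE, unadjusted p = 0.0386, edgeR adjusted p = 0.976). Without Ezh2 KO replicate 2 the value of Rtp4 was 0.61.

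Bst2 and Samhd1 were the most abundant effectors. Bst2, which encodes tetherin and holds budding virions at the cell surface, had the highest level per kilobase of the whole list (89.8 CPM per kb). It was at 65.9, 59.2 and 67.5 CPM in Ctrl against 82.9, 89.0 and 62.3 CPM in Ezh2 KO (0.28, 95% interval -0.14 to 0.70), above the Ctrl range in 2 of 3 libraries. Samhd1, which depletes the nucleotides that reverse transcription needs, was at 38.4, 36.0 and 38.3 CPM in Ctrl against 37.8, 38.5 and 33.6 CPM in Ezh2 KO. Its 95% interval, -0.43 to 0.35, was the narrowest of the 39. Ifi35, Isg20 and Rsad2, which encodes the antiviral enzyme viperin, had log2 fold changes of 0.22, 0.06 and -0.18 and overlapping groups.

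**Figure D3:**
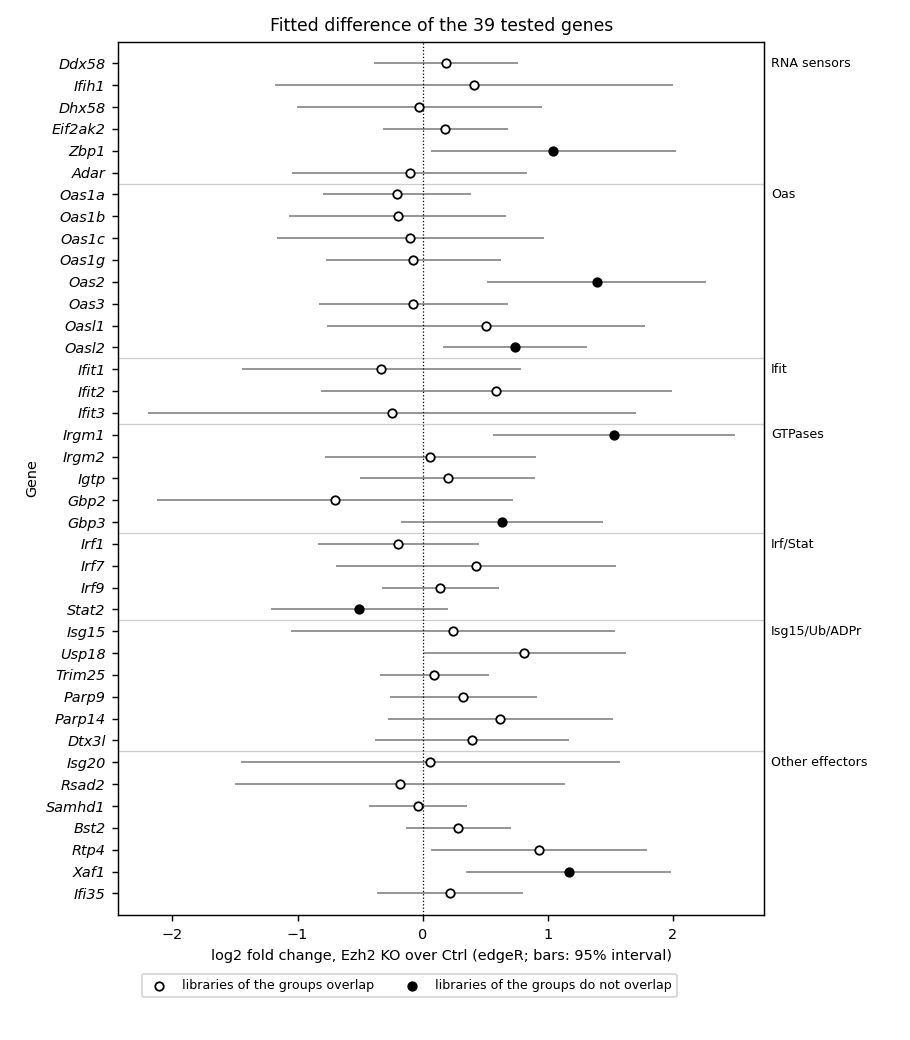
Log2 fold change of Ezh2 KO over Ctrl for the 39 tested genes with 95% intervals from edgeR, with filled points where the libraries of the groups do not overlap. The intervals of 7 genes exclude 0 before adjustment, all on the positive side, and the median half-width is 0.84.

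Replicates of the Ezh2 KO group differed in which members were high. Of the 7 genes with an unadjusted p under 0.05, Ezh2 KO replicate 1 was the lowest of the 3 Ezh2 KO libraries in 5 (Oasl2, Irgm1, Usp18, Rtp4 and Xaf1) and Ezh2 KO replicate 2 in the other two (Oas2 and Zbp1). Ezh2 KO replicate 1 was also the library with the lowest Ezh2 level, and its part in the result was not tested. The count of 7 fell to 3 without Ctrl replicate 2, and to 4 without Ezh2 KO replicate 2 or without Ezh2 KO replicate 3. The share of all tested genes at that p was not computed for these refits, so the counts cannot be set against it. Ctrl replicate 2 was the lowest of all 6 libraries in 12 of the 39 tested members and the highest in 0. Irgm1, Oas2 and Xaf1 kept an unadjusted p under 0.05 with each library left out.

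The summed level of the 43 genes was 388, 351 and 405 CPM in Ctrl against 413, 446 and 419 CPM in Ezh2 KO. Bst2 alone made up 14.9% to 20.1% of a sum. Without it the sums were 322, 291 and 338 CPM in Ctrl against 330, 357 and 357 CPM in Ezh2 KO, and the groups overlapped.

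**Figure D4:**
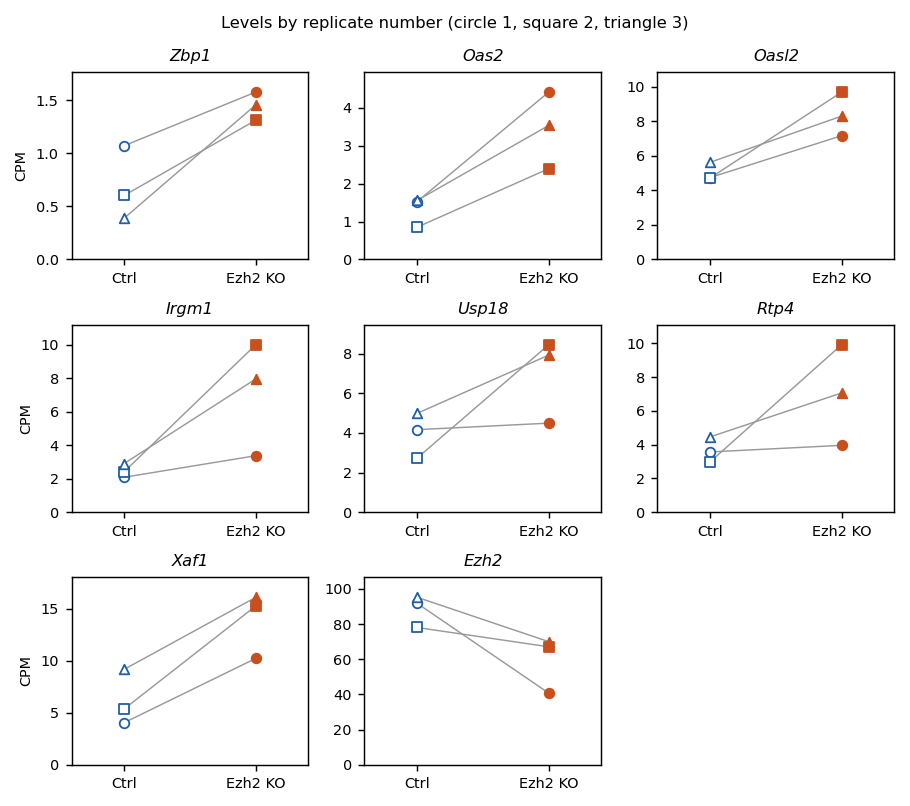
CPM of the 7 members with an unadjusted p under 0.05 and of Ezh2 in the Ctrl and Ezh2 KO libraries, with lines that join libraries of the same replicate number (circle 1, square 2, triangle 3) and axes that start at 0. Each line of the 7 members goes up, and each line of Ezh2 goes down.

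The rest of the pathway was read from lists of its ligands, receptors, adaptors, inhibitors and other targets. Of 20 interferon genes listed, 11 were matched by symbol. The others, most of them Ifna genes, were not matched, so their levels are not known here. Of the 11 matched, 8 had 0 counts in all 6 libraries, among them Ifnb1, the first interferon that most cells make, and Ifng. A count of 0 allows up to 0.0144 CPM over the 6 libraries together (3 counts, for counting error only). Ifna13 and Ifne had 2 reads each in all, and Ifnk had 37, at 0.12 to 0.32 CPM per library. Receptors and Jak kinases were all expressed, 9 of 9 tested, with a median log2 fold change of -0.04 and 0 at an unadjusted p under 0.05. The receptor chains Ifnar1 and Ifnar2 were at 33.4 ± 5.15 and 3.41 ± 0.172 CPM in Ctrl against 28.1 ± 7.97 and 3.66 ± 1.13 CPM in Ezh2 KO (SD, n = 3). Jak1 was at 87.1 ± 14.7 and 108 ± 8.59 CPM and Tyk2 at 20.0 ± 8.20 and 15.2 ± 9.39 CPM, and Ifngr2, a chain of the interferon gamma receptor, at 16.2 ± 2.48 and 12.4 ± 1.99 CPM.

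Adaptors, kinases and further sensors (15 tested, 5 positive, median -0.19) held 1 gene at an unadjusted p under 0.05. Over all tested genes 51.3% were positive, and at that p 1.55% were higher and 1.25% lower. The 1 gene was Myd88, the adaptor of Toll-like receptors, at 5.15 ± 0.593 and 8.13 ± 2.17 CPM (SD, n = 3, log2 fold change 0.66). Mavs, the mitochondrial adaptor of RIG-I and MDA5, was at 41.1 ± 7.38 and 39.3 ± 12.6 CPM, and Irf3, the factor it activates, at 34.3 ± 3.59 and 28.8 ± 1.27 CPM, with all Ezh2 KO libraries below all Ctrl libraries. Rnaseh2a, a subunit of the enzyme that clears RNA from DNA, was at 114 ± 20.9 and 91.1 ± 13.5 CPM. Among 8 inhibitors of interferon signalling (median -0.08), 1 gene was lower at an unadjusted p under 0.05, where 1.25% of all tested genes were. That gene was the phosphatase gene Ptpn6, at 56.8 ± 19.3 and 32.3 ± 12.4 CPM (-0.82, edgeR adjusted p = 0.976). Pias4, a SUMO ligase, was at 150 ± 41.3 and 111 ± 47.8 CPM.

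A further 48 tested interferon-stimulated genes outside the 43 had a median log2 fold change of 0.09, with 29 positive. At an unadjusted p under 0.05, 2 were higher and 0 lower. Over all tested genes 51.3% were positive, and at that p 1.55% were higher and 1.25% lower. The 2 higher genes were Gbp4, at 0.945 ± 0.267 and 2.03 ± 0.281 CPM, and Nmi, which binds Stat proteins, at 2.18 ± 0.212 and 4.24 ± 1.39 CPM (SD, n = 3). Their log2 fold changes were 1.09 and 0.96. In 5 of the 48 the Ezh2 KO libraries lay above all Ctrl libraries and in 0 below, against 4.07% and 4.03% of all tested genes. Of the 15 tested adaptors, kinases and further sensors, 0 lay above and 3 below. Of the 9 receptors and Jak kinases, 0 lay above and 1 below, and the inhibitors and NF-kappaB targets had 0 either way. Targets of NF-kappaB and inflammatory genes (9 tested, median -0.13) had 0 in either direction at an unadjusted p under 0.05. Relb was at 15 ± 5.30 and 8.61 ± 3.49 CPM and Nfkbia at 98.4 ± 22.1 and 80.1 ± 11.3 CPM. None of these lists held a gene past edgeR's adjusted threshold.

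**Figure D5:**
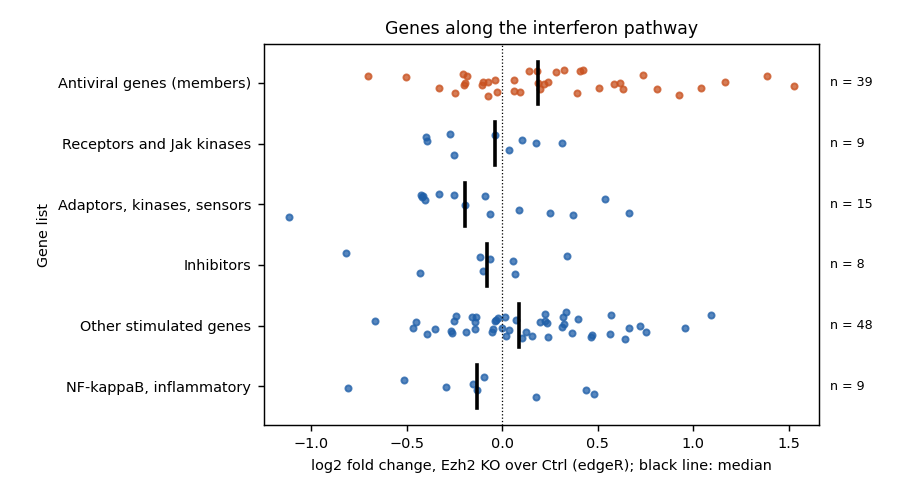
Log2 fold change of Ezh2 KO over Ctrl for each tested gene of the antiviral list (orange) and of 5 further lists of the pathway (blue), with the median as a black line. The medians are 0.19 for the antiviral genes, 0.09 for the other stimulated genes and between -0.19 and -0.04 for the other lists.

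Immune and blood cells, which express many of these genes strongly, were looked for by 13 marker genes. Their summed level was 17.2 to 24.3 CPM in Ctrl against 16.3 to 20.0 CPM in Ezh2 KO, and 0 of the 6 tested markers had an unadjusted p under 0.05. Their levels were unequal. The pan-leukocyte gene Ptprc had 1 read over all 6 libraries, the macrophage gene Adgre1 1 and the myeloid adaptor gene Tyrobp 3. Other markers of the list were read more often, with 2595 reads of Cd68, a lysosomal gene abundant in macrophages, 497 of Cd79a, 342 of Itgam, 197 of Csf1r, 176 of Cd3e and 124 of Hba-a1. Cd68 was at 9.09 to 12.4 CPM in Ezh2 KO, below all Ctrl libraries at 12.7 to 16.9 CPM. Markers of fibroblasts, endothelium and somatic lineages summed to 164 to 237 CPM in Ctrl against 163 to 235 CPM in Ezh2 KO, most of it from Pecam1, which PGCs also express. The median log2 fold change of the 16 tested was -0.27, and 11 were negative, 4 of them at -1 or below. At an unadjusted p under 0.05 edgeR had 1 higher and 2 lower, and with the replicate block 1 higher and 5 lower, with a median of -0.46. Of all tested genes 1.55% were higher and 1.25% lower in edgeR, and 5.98% and 3.12% with the block. The groups did not overlap in 2 higher and 4 lower, against 4.07% and 4.03% of all tested genes. In all 3 pairs 8 were lower, against 14.8% of all tested genes. The part of these immune and somatic markers in the values of the antiviral genes was not tested.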

How the data were processed

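Per the labels' protocols, 3 Ctrl and 3 Ezh2 KO libraries were made from total RNA of sorted cells. The authors deposited unnormalized counts, 1 integer for each Ensembl gene and library. The submitters' processing notes list CASAVA 1.8.4, Trimmomatic 0.33, TopHat2 2.0.11, featureCounts and the builds NCBIM37 and mm9. Their settings and any use of strand were not given in the sources used here, so overlapping genes cannot be separated. Symbols (32919 IDs), transcript lengths and GC content came from GENCODE M21 by gene ID. Promoter windows came from RefSeq on GRCm38.p6, another build than that of the counts. The members, lists and tests were chosen with earlier results of these data known.

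Genes kept by filterByExpr (minimum count 10) numbered 16420. Scaling was by TMM, and the main test was edgeR's robust quasi-likelihood test (edgeR 4.0.16, R 4.3.3), two-sided, with Benjamini-Hochberg adjustment over all tested genes and a threshold of 0.05. Library totals ran from 27072150 to 49382146 counts. CPM values are counts scaled to the TMM-adjusted library size. Alternatives were DESeq2 1.42.0, limma-voom (limma 3.58.1), DESeq2 size factors, no filter, a stricter filter (1 CPM in 3 libraries), a GC offset (loess, span 0.5, fitted on genes above 2 log2 CPM), the replicate block, each library left out, and a threshold of 0.10. The removal of both libraries at the ends of the first component was chosen after seeing the data. Fits were tested on simulated data. Same-numbered libraries of the groups deviated together, with correlations of 0.58, 0.37 and 0.19 for numbers 1 to 3. Each was over 0.1, the limit set for comparing same-numbered libraries as pairs. The main test did not use the numbers, and the block was an alternative. The highest correlation between libraries of different numbers was 0.30, above that of number 3, and no label says what a number marks.

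Genes with full statistics were members past 0.05 adjusted in edgeR or DESeq2, with or without the block, or at an unadjusted edgeR p under 0.05. Of each pathway list reported, the 2 tested genes of smallest p were named, plus Ifnar1, Ifnar2, Jak1, Tyk2, Mavs and Irf3. Marker lists are given by summed levels, counts and defining markers, and the immune markers with over 100 reads were named after their values were seen. A further list of the pathway and a gene of it are not reported here.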

Additional observations from a re-analysis of the deposited data

How the results depend on the processing

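The number of genes called over the whole table was 0 in edgeR and 5 in DESeq2, and 50 in DESeq2 with the replicate block, of which 2 were members (Irgm1, log2 fold change 1.39, adjusted p = 0.0296, and Xaf1, 1.20, adjusted p = 0.00697). Under the other alternatives, a threshold of 0.10 included, 0 genes and 0 members were called. With the replicate block in edgeR the median log2 fold change of the tested members was 0.18, and the block changed no other call. The number of members higher at an unadjusted p under 0.05 was 7, with 3 to 6 when a library was left out. Without both libraries at the ends of the first component it was 5. The shares of all tested genes in the refits with libraries left out were not computed. The median log2 fold change of all tested members ran from 0.09 to 0.25 when a library was left out. Over 16 alternatives 23 of 39 tested members kept the sign of their log2 fold change, 19 positive and 4 negative. Leaving out a Ctrl or Ezh2 KO library leaves 2 in that arm. The median half-width of a member's 95% interval, 0.84, limits what can be seen at this depth and number of libraries.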
